A study of Caenorhabditis elegans with 2 samples.

Results

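The vitellogenin genes vit-1, vit-2, vit-3, vit-4, vit-5 and vit-6 encode the yolk proteins of Caenorhabditis elegans. They were selected by symbol, and all 6 were found among 19973 protein-coding genes on the nuclear chromosomes of WBcel235, the assembly also called ce11. At each gene, the position and rank of the binding summits of the TATA-binding protein TBP-1 were read from 4 peak lists. Of the 6 genes, 3 had a reproducible summit no farther than 500 bp from the annotated 5' end, namely vit-1, vit-2 and vit-6. Of all protein-coding genes, 10.2% had such a summit. At vit-5 the corresponding peak fell just short of that list, and at vit-3 and vit-4 only weak summits were found. vit-2 and vit-6 also carried summits along the gene and a reproducible one within 500 bp of the 3' end, against 5.81% of protein-coding genes.

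Yolk proteins are lipid carriers related to the apolipoproteins of vertebrates. In the worm they are made in the intestine of the adult hermaphrodite, secreted into the body cavity and taken up by oocytes through the receptor RME-2, and males do not make them. The genes are among the most actively transcribed of the adult intestine. TBP is the general transcription factor that recognises the TATA box and helps to place RNA polymerase at a start site, and it also serves the polymerases that make ribosomal and transfer RNA. Worm vitellogenin promoters are known for short conserved elements called VPE1 and VPE2, of which VPE2 contains a GATA site, the sequence type bound by the intestinal factor ELT-2.

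Chromatin immunoprecipitation with an anti-GFP antibody was followed by sequencing in whole young adults, 65 hours old and of mixed sex, after synchronisation by L1 starvation. Both replicates came from strain OP746, which has the unc-119(tm4063) allele and the transgene wgIs746, carrying tbp-1 with a C-terminal TY1 EGFP 3xFLAG tag and a working unc-119 gene. The labels do not say whether untagged TBP-1 is also present. There was 1 group of 2 biological replicates and no second condition, so values are described here beside those of all protein-coding genes and none is tested. The sample is the whole animal, so binding in few cells and weak binding in many cells cannot be told apart, and yolk-making intestinal cells are only a part of it.

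Each replicate list and the pooled list held 30000 peaks, background included, and the reproducible list held 3862, which were the 3862 strongest of the pooled list. Peaks were ranked by the authors' signal value within each list, rank 1 being the strongest. The percentile is the share of the list with a lower signal. Read depth is unknown. The −log10 q value, a measure of significance by the authors' caller, reached at most 3.96 in the pooled list, 4.01 in replicate 1 and 3.78 in replicate 2.

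The family lies on 2 chromosomes. vit-6 (WBGene00006930) is the only member on an autosome, at chromosome IV, 8261157 to 8266459, plus strand. The other 5 are on chromosome X. vit-5 (WBGene00006929) spans 3403471 to 3408603 on the plus strand. vit-4 (WBGene00006928) and vit-3 (WBGene00006927) lie in tandem on the minus strand, at 3558769 to 3563965 and 3567355 to 3572549, with 3389 bp between them. vit-2 (WBGene00006926) spans 5101042 to 5106169 and vit-1 (WBGene00006925) 7727889 to 7733168, both on the plus strand. All are of similar length, from 5128 to 5303 bp. The annotated 5' end is 0 to 16 bases from the start codon, and vit-6 has 2 annotated 5' ends, 16 bases apart. Positions at vit-6 are given from the first of them.

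The 200 bases before each 5' end are shown because they hold the promoter elements and most of the upstream summits. They were read from the RefSeq copy of WBcel235 and are written 5' to 3' on the strand of the gene. Capitals mark matches on either strand to the TATA box TATAAA, to VPE1 (TGTCAAT, or ATTGACA when reversed), to VPE2 (CTGATAA, or TTATCAG) and to the GATA site TGATAA (or TTATCA), which every VPE2 match contains. In vit-1 the last capitals mark the shorter match TATAA.
vit-1 upstream, chrX:7727689-7727888, plus strand: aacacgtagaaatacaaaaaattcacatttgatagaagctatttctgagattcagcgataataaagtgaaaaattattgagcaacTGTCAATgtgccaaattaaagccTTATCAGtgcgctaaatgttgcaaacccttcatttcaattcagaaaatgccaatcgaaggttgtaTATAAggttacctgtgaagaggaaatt
vit-2 upstream, chrX:5100842-5101041, plus strand: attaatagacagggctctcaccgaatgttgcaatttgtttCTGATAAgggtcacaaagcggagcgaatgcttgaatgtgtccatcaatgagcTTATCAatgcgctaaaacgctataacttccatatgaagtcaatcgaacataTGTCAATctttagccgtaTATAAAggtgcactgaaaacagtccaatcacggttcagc
vit-3 upstream, chrX:3572550-3572749, minus strand: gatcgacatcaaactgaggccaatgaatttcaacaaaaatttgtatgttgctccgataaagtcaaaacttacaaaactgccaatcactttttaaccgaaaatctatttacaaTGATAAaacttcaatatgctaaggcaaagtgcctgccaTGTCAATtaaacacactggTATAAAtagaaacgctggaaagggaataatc
vit-4 upstream, chrX:3563966-3564165, minus strand: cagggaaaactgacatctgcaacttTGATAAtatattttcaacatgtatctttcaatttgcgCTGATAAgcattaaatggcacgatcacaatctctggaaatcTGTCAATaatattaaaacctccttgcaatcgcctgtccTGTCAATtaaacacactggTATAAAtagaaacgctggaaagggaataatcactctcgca
vit-5 upstream, chrX:3403271-3403470, plus strand: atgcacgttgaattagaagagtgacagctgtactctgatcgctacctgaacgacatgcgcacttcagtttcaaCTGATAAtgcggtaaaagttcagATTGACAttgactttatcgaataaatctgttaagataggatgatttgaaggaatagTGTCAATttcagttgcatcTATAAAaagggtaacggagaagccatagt
vit-6 upstream, chrIV:8260957-8261156, plus strand: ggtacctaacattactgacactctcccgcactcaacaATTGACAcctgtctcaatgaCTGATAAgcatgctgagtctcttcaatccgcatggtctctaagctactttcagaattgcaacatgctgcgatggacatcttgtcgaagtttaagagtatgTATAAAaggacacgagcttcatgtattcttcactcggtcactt

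The TATA box match sat at a similar place in each of 5 promoters. It began at -39 bp in vit-2, -31 bp in vit-3, -40 bp in vit-4, -29 bp in vit-5 and -43 bp in vit-6. vit-1 had no TATAAA between 250 bases before and 50 after its 5' end, and instead held TATAA at -27 bp. On either strand of the window from 250 bases before to 50 after the 5' end, TATAAA occurred in 37.9% of 19973 protein-coding promoters, against 5 of the 6 members. On the coding strand and starting 45 to 20 bases upstream, it was found in 6.39% of them, and a TATAA there in 9.57%. This position window, and the shorter match, were chosen after seeing the members' sequences, so these lower shares are a description only. VPE1 matched all 6 promoters within 250 bases before to 50 after the 5' end, against 5.77% of protein-coding promoters. VPE2 matched 5 of 6, vit-3 being the exception, against 8.15%. Both elements together occurred in 5 of 6, against 0.506%. VPE1 and VPE2 are known as elements of vitellogenin promoters, so high counts among the members were given in advance. These comparisons are a description only. The GATA site was less selective, with matches in 6 of 6 and in 30.2% of all promoters. Such matches describe the letters present and are not evidence of bound sites.

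**Figure D1:**
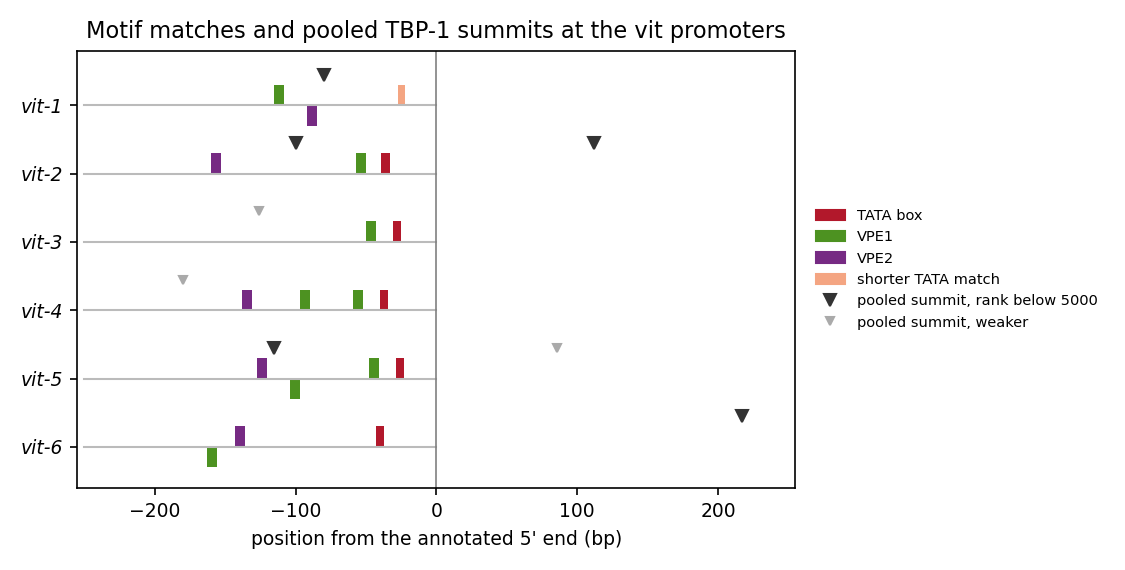
Matches to the TATA box, VPE1 and VPE2 (boxes, above the line on the coding strand and below it on the other) and pooled TBP-1 summits (triangles, dark for ranks below 5000) at the 6 vit promoters, by position from the annotated 5' end in bp. The dark summits of vit-1, vit-2 and vit-5 at -80, -100 and -115 bp lie upstream of the TATA match, vit-2 has another at 112 bp, and that of vit-6 is at 217 bp, inside the gene. The strongest vit-4 summit, at -444 bp, is outside the range shown.

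In the reproducible list, 3 of the 6 vit genes had a summit within 500 bp of a 5' end, against 10.2% of protein-coding genes. On the X chromosome, where a smaller share of genes had a peak, 2 of the 5 members had one, against 6.41% of X protein-coding genes. With the 3862 strongest peaks of replicate 1 alone the count was 2 (vit-2 and vit-6; background 10.1%), and with those of replicate 2 alone it was 3 (vit-1, vit-2 and vit-6; background 9.6%). In the longer lists, where weak peaks enter, all 6 genes had a summit in reach in the pooled list (background 35.8%) and in replicate 1 (36.9%), and 5 of 6 in replicate 2 (36.5%). For X genes those backgrounds were 25.9%, 28.9% and 28.5%.

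vit-6 had the strongest 5' summit of the family. It is the member least like the others in sequence, with 52.2% to 52.8% identical positions over the gene. The summit had rank 2912 in the pooled list at 217 bp, rank 2740 in replicate 1 at 47 bp and rank 2392 in replicate 2 at 190 bp. Replicate 1 had another vit-6 summit at 251 bp, rank 4070. The ranks were close in both libraries, but the positions were 143 bp apart, and every one of them lay downstream of the 5' end and of the TATA box match. An ncRNA gene on the other strand, K07H8.16, starts beside the vit-6 5' end, and the pooled summit lay at -224 bp from its own 5' end, so the summit was in reach of both genes.

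vit-1 had the most sharply repeated position. Its summit was at -80 bp in the pooled list and in both replicates, with rank 3285 in the pooled list, 4249 in replicate 1 and 3481 in replicate 2. The −log10 q was 3.96, 4.01 and 3.37. Replicate 2 had another, weak summit at 155 bp with rank 20339. The position was therefore identical in both libraries, while in replicate 1 the peak was not among the 3862 strongest. The middle of the VPE2 match of vit-1 was 9 bp from this summit, and the TATAA match 55 bp downstream of it. From the strongest pooled summit, the distance to VPE2 was also 9 bp at vit-5. At vit-2, vit-4 and vit-6 that distance was 57, 309 and 357 bp. Fragments were 200 to 800 bp long, so a short distance does not show binding at an element.

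vit-2 had a pair of summits on either side of its 5' end. In the pooled list they were at -100 bp (rank 3415) and 112 bp (rank 4991), and in replicate 2 at -100 bp (rank 2672) and 101 bp (rank 9136). Replicate 1 had only the downstream one, at 90 bp with rank 2961. Both libraries thus ranked a vit-2 summit among their 3862 strongest, but they placed it 190 bp apart. Replicate 1 had no summit at the upstream position that entered the reproducible list. Its peak with the summit at 90 bp, from 5100964 to 5101299, still overlapped the reproducible peak, from 5100777 to 5101106.

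vit-5 lay just outside the reproducible list. Its strongest pooled summit was at -115 bp with rank 4147, which is 285 ranks past the end of that list, and a signal of 97.2 against 103 for the last reproducible peak. vit-2 was the member just inside, 447 ranks from the end with a signal of 114. The replicates placed the vit-5 summit 12 bp apart, at -99 bp (rank 5031) and -111 bp (rank 4676). At vit-5 the TATA box match was 88 bp downstream of the pooled summit, and at vit-2 63 bp. Weaker vit-5 summits followed at 86 and 302 bp in the pooled list, with ranks 22993 and 28273, and the former of these was the one nearest to the 5' end.

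The tandem genes vit-3 and vit-4 had the weakest 5' summits. At vit-3 the summit was at -126 bp, with rank 11542 in the pooled list and 16585 in replicate 1. Replicate 2 had none within 500 bp, its nearest vit-3 summit being at 4988 bp, near the 3' end. At vit-4 the strongest pooled summit was at -444 bp (rank 17991), repeated in replicate 1 at the same place (rank 12179). Replicate 2 had one at -159 bp (rank 23247). The pooled summit nearest to the vit-4 5' end was at -180 bp, near the end of the list with rank 29354 of 30000. The −log10 q values of these summits ran from 0.19 to 0.84, where the other members reached 2.61 or more in every list. These 2 genes also have ncRNA genes on the other strand nearby, T27A10.8 and F59D8.3, whose own 5' ends were within 500 bp of the summits at -126 and -180 bp.

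Set against all genes with a pooled summit within 500 bp of a 5' end, 7142 in number, the vit genes were not among the strongest. A stronger summit was found at 1523 genes for vit-6, 1742 for vit-1, 1812 for vit-2 and 2176 for vit-5, or 21.3%, 24.4%, 25.4% and 30.5% of the 7142. For vit-3 and vit-4 these shares were 64.3% and 80%. The order was therefore vit-6, vit-1, vit-2, vit-5, vit-3 and vit-4 in the pooled list. In replicate 1 it was vit-6, vit-2, vit-1, vit-5, vit-4 and vit-3, and in replicate 2 vit-6, vit-2, vit-1, vit-5 and vit-4, with no value for vit-3. The neighbours vit-1 and vit-2, and vit-3 and vit-4, thus changed places between lists, whereas vit-6 led in each, and vit-5 came after vit-1 and vit-2 and ahead of vit-3 and vit-4 where these had a value.

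**Figure D2:**
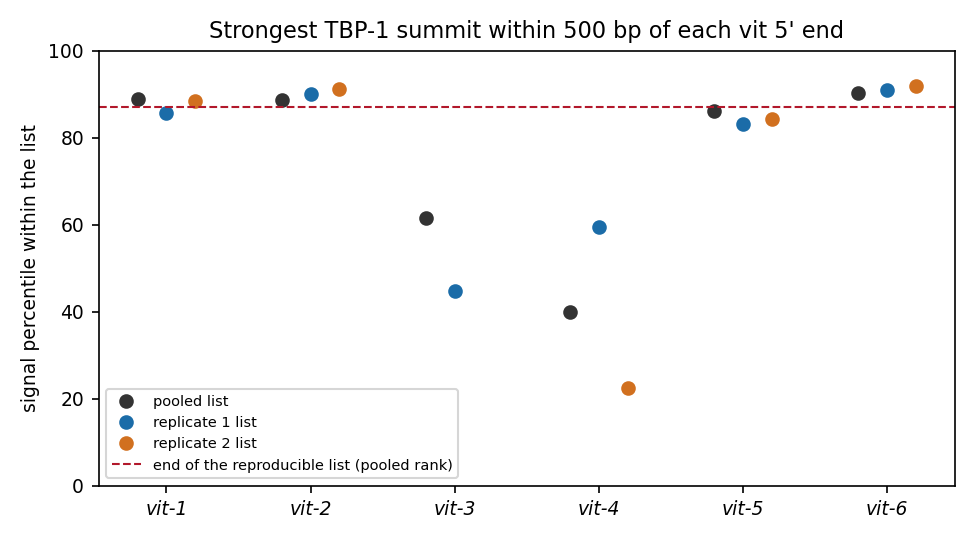
Signal percentile, within its own list, of the strongest TBP-1 summit within 500 bp of each vit 5' end, for the pooled list and each replicate; the dashed line is the pooled rank at which the reproducible list ends. vit-1, vit-2, vit-5 and vit-6 have percentiles of 83.2 to 92, vit-3 and vit-4 of 22.5 to 61.5, and vit-3 has no point for replicate 2.

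**Figure D3:**
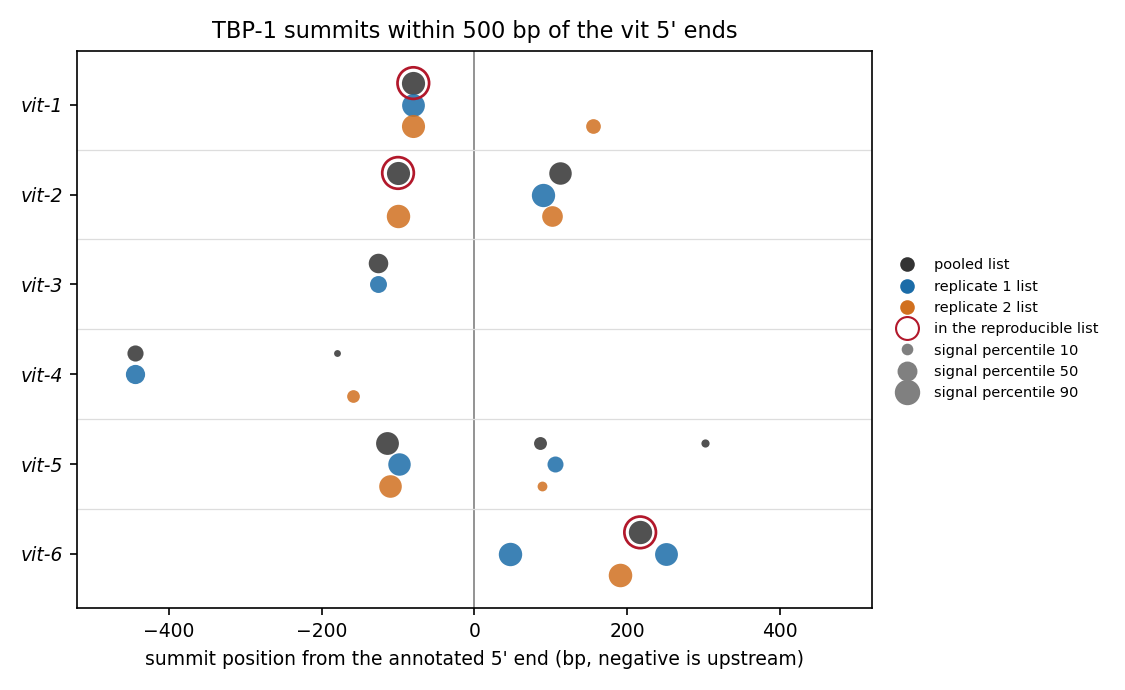
Position of every TBP-1 summit within 500 bp of the vit 5' ends in bp, by list (colour), with point size showing the signal percentile within the list and rings marking summits of the reproducible list. The strongest vit-1 summits line up at -80 bp in all lists, with a weak one at 155 bp in replicate 2, vit-2 has summits on both sides of its 5' end, and the summits of vit-6 all lie downstream.

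Across all genes, the share with a TBP-1 peak was no higher where a TATA box match was present. Of the 1276 protein-coding genes with TATAAA on the coding strand 45 to 20 bases upstream, 91 (7.13%) had a reproducible summit within 500 bp, and of the 18697 others 1944 (10.4%) had one. In the pooled list the shares were 27.2% and 36.3%. No test was made of these differences. The window was counted from annotated 5' ends, and how far these are the places where transcription starts was not tested. vit-2 and vit-6 are among the 91. vit-3, vit-4 and vit-5 have the same match and no reproducible summit, and vit-1 has the summit without the full match.

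Along their length, vit-2 and vit-6 held the most summits of the family in each list. This view was chosen after seeing the summits. In the pooled list 8 summits lay inside vit-2 and 8 inside vit-6, or 1.56 and 1.51 per kb. Of 10117 protein-coding genes of 2000 bp or more, 0.988% were at least as dense as vit-2 and 1.24% as dense as vit-6, and the median gene had none. In replicate 1 the counts were 7 and 9, and in replicate 2 they were 8 and 7, with 0.623% to 2.81% of genes at least as dense. vit-5 had 4 pooled summits inside, 2 in replicate 1 and 5 in replicate 2, where 7.86% of genes were at least as dense and the gap to the 7 of vit-6 was smallest. vit-3 had 2 pooled summits inside, vit-1 had 1 and vit-4 had 0, and none of these 3 had more than 2 in either replicate.

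Inner summits, those more than 500 bp from both ends, were repeated in both replicates at some places and not at others. More than 500 bp from both ends, 42% of genes of that length had a pooled summit. In replicate 1 it was 44.1% and in replicate 2 it was 44.7%. In each of these lists vit-1, vit-2, vit-5 and vit-6 had one, and vit-3 and vit-4 had none. In the pooled list vit-2 had 5 and vit-6 had 7, and 5.27% and 1.78% of genes were at least as dense. The counts were 4 and 7 in replicate 1, with 8.07% and 1.69% of genes at least as dense. They were 5 and 6 in replicate 2, with 4.7% and 2.99%. The strongest in vit-2 was at 4034 bp with rank 4388 in the pooled list, and was met by summits at 4021 bp in replicate 1 (rank 4982) and 4090 bp in replicate 2 (rank 10284). In vit-6 the summit at 2090 bp had rank 5962 in the pooled list, 19649 in replicate 1 at 2111 bp and 4551 in replicate 2 at 2055 bp. The vit-6 summit at 4588 bp (pooled rank 8024) was met at 4587 bp in replicate 1 (rank 5743) and 4506 bp in replicate 2 (rank 4568). The one at 3501 bp (rank 13720) was met at 3513 bp (rank 13026) and 3545 bp (rank 25025). In vit-2 the summit at 3406 bp (rank 7038) was met at 3341 bp (rank 5062) and 3399 bp (rank 23966). Another vit-6 summit, at 2839 bp, was met at 2836 bp in replicate 1 (rank 3634), and the closest in replicate 2 was at 3115 bp. The remaining pooled inner summits of vit-2 and vit-6 lay farther from those of 1 or both replicates than the summits met in both. In vit-2 the closest to 1428 bp were at 1672 bp in replicate 1 and 1438 bp in replicate 2. To 2580 and 2779 bp they were at 2685 and 2624 bp. In vit-6 the closest to 1123 bp were at 1054 and 1356 bp. To 1528 bp they were at 1599 and 1356 bp, and to 3711 bp at 3513 and 3545 bp. No inner summit of any vit gene entered the reproducible list, where 6.36% of genes of that length had one.

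**Figure D4:**
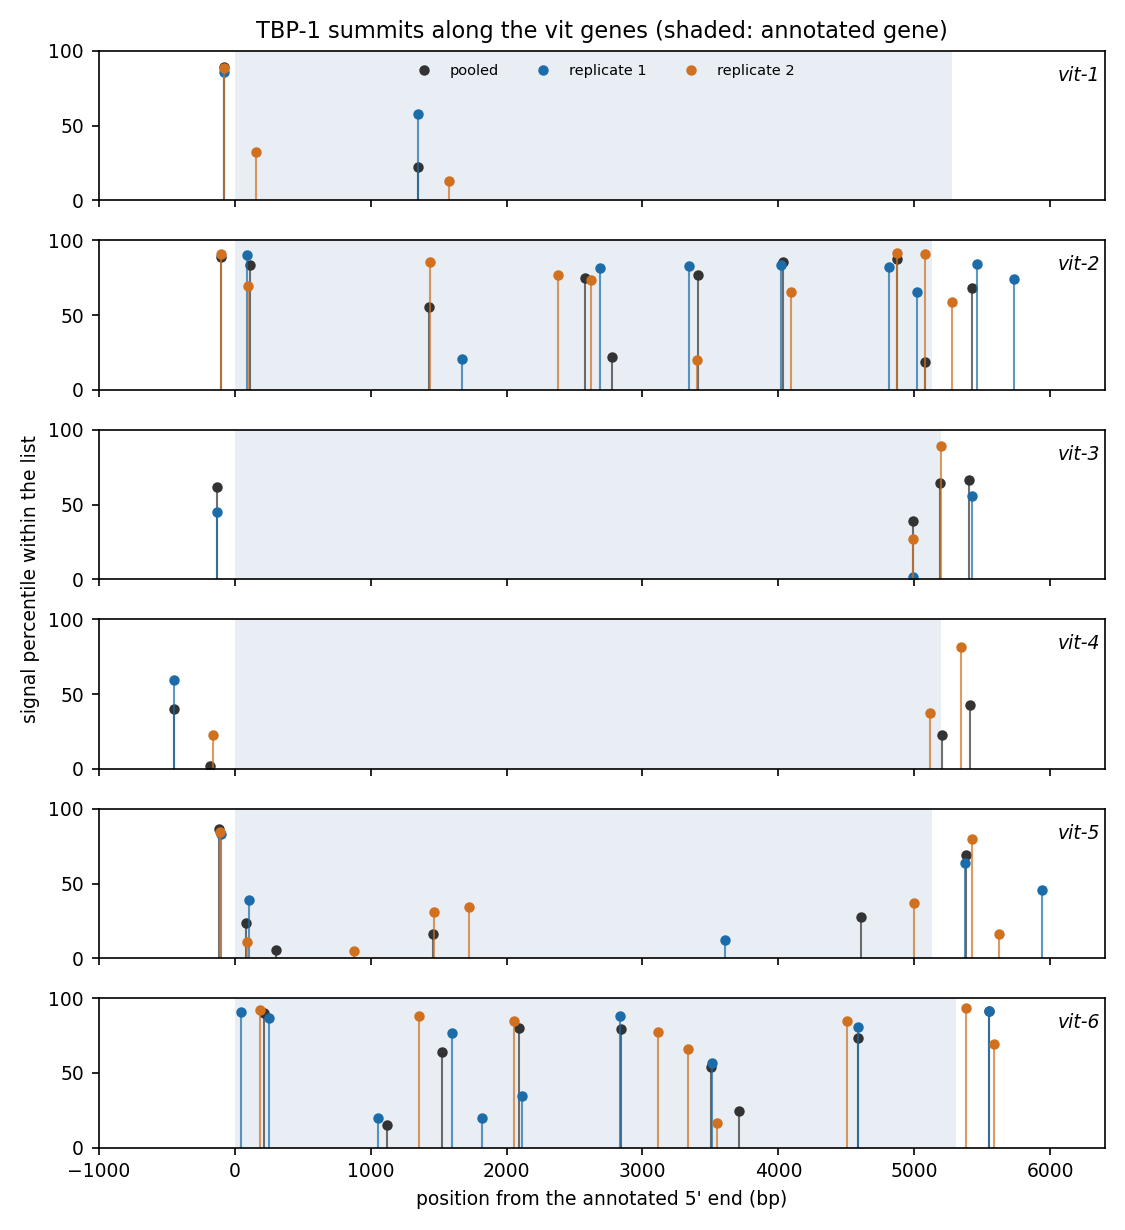
Signal percentile within the list of each TBP-1 summit from 1000 bp before the 5' end to 1000 bp past the 3' end of the 6 vit genes (shaded), for the pooled list and each replicate. Summits run along the whole of vit-2 and vit-6, whereas vit-1 has few beyond its promoter and vit-4 has none inside in the pooled list.

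**Figure D5:**
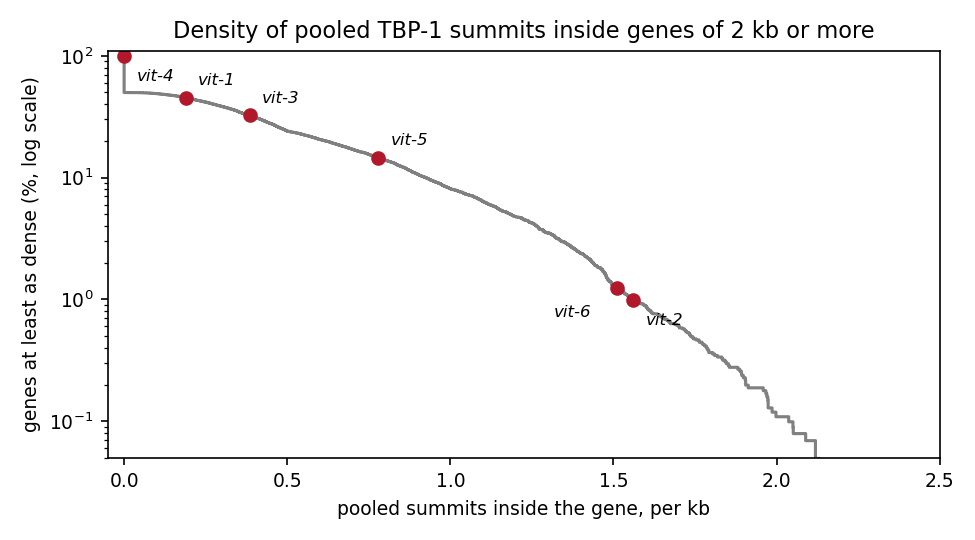
Share of the 10117 protein-coding genes of 2000 bp or more (log scale, in %) that hold at least the given number of pooled TBP-1 summits per kb, with the 6 vit genes as points. vit-2 and vit-6 lie at 1.56 and 1.51 per kb in the sparse end of the curve, and vit-4 lies at 0.

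Summits were also called at the 3' ends of vit-2 and vit-6. These 2 genes had a reproducible summit within 500 bp of the 3' end, against 5.81% of protein-coding genes (3.99% of X genes). With the 3862 strongest peaks of replicate 1 this held for vit-6 only (background 5.83%), and with those of replicate 2 for vit-2, vit-3 and vit-6 (background 6.09%). At vit-6 it was 247 bp past the 3' end with rank 2599, ahead of the 5' summit of that gene. The replicates had their strongest one at 246 bp (rank 2514) and 77 bp (rank 2008). At vit-2 it was at -257 bp from the 3' end, inside the gene, with rank 3785. Replicate 2 had it at -258 bp with rank 2536, while the strongest in replicate 1 was 335 bp past the end with rank 4747. In replicate 2 the vit-2 3' summit therefore ranked ahead of its 5' summit (2536 against 2672), and in replicate 1 it did not (4747 against 2961).

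Pooled summits were in reach of the 3' end at 5 of 6 members, against 32.6% of protein-coding genes, and vit-1 was the exception. In replicate 1 there were 4 (background 33.1%) and in replicate 2 there were 5 (background 32.2%). For X genes the backgrounds were 20.8%, 23% and 20.5%. At vit-3 the strongest was at 205 bp past the 3' end with rank 10059 in the pooled list and at 232 bp with rank 13208 in replicate 1. Replicate 2 had it on the last base of the gene with rank 3223. At vit-4, replicate 2 had a summit at 144 bp with rank 5515, and replicate 1 had none. At vit-5 the summits were at 246, 243 and 289 bp past the end, with ranks 9251, 10797 and 6103. In vit-2, vit-3, vit-5 and vit-6 the strongest 3' summit was therefore better ranked in replicate 2 than in replicate 1, and vit-4 had one in replicate 2 only. Genes on the other strand end next to vit-2 (C42D8.9), vit-5 (unc-78) and vit-6 (K07H8.8), and no annotated 5' end of another gene was within 500 bp of any summit counted for a vit 3' end.

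The copies differ in how far reads can be placed. Over the gene, vit-3 and vit-4 were identical at 97.1% of aligned positions, vit-3 and vit-5 at 95.4% and vit-4 and vit-5 at 95.6%, while vit-1 and vit-2 shared 90.5%. In these 4 pairs the 250 bases upstream were less alike, at 60.7%, 51.8%, 51.3% and 53.2%. The upstream range over all pairs was 44.7% to 60.7%. The vit-3 and vit-4 promoters share an unbroken run of at least 110 bases. It begins with the VPE1 match nearest the gene and takes in the TATA box. It reaches 59 bases after the vit-3 5' end, where the compared stretch stopped, so its end was not determined. Within 500 bp of the 5' end, 57.8% of 50-base stretches at vit-3 and 56.8% at vit-4 occurred only once in the genome. The share was 96% at vit-5 and 100% at vit-1, vit-2 and vit-6. In the 500 bases upstream alone it was 99.8% at vit-3 and 97.8% at vit-4.

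Over the whole gene, the share of 50-base stretches found once was 25.9% for vit-3, 21.4% for vit-4 and 50.9% for vit-5. It was 87.2% for vit-1, 86.9% for vit-2 and 100% for vit-6. Neither the read length nor the treatment of reads with several matches is given in the sources used here. The members with the lowest shares, vit-3 and vit-4, were those with the weakest 5' summits and had 2 and 0 pooled summits inside the gene, and the part of this in their ranks was not tested. vit-1 and vit-2 had almost the same share and differed in the number of pooled summits anywhere inside the gene, 1 and 8. The part of read placement in any of these counts was not tested.

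Upstream of vit-1, a reproducible peak with its summit at -2099 bp (rank 2949) was at 39 bp from the 5' end of the ncRNA gene K09F5.9 and at -189 bp from that of spp-14, a saposin-like gene, and beyond reach of vit-1. No protein-coding 5' end other than the members' own was within 500 bp of a summit counted for a vit gene.

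Other genes of the yolk pathway had reproducible summits within 500 bp about as often as all protein-coding genes, of which 10.2% had one. Of 11 genes listed as regulators of yolk or intestinal gene expression, 1 had one, the insulin pathway's forkhead factor gene daf-16, at -423 bp with pooled rank 3131. In the pooled list 6 of the 11 had a summit in reach, against 35.8%. The GATA factor gene elt-2 had no pooled summit in reach and 1 in replicate 2, at -466 bp with rank 4029. The homeodomain factor gene unc-62 had rank 6143 in the pooled list, 4961 in replicate 1 and 3685 in replicate 2. Of 10 genes for yolk export and uptake, 1 had one, rme-2, the oocyte yolk receptor gene, at -91 bp. It ranked 1243 in the pooled list, 1257 in replicate 1 and 1171 in replicate 2, ahead of every vit gene in each list. In the pooled list 8 of the 10 had a summit in reach, against 35.8% of protein-coding genes. Among them were the endocytosis genes rme-1 (rank 4618), rab-7 (rank 5423) and chc-1 (rank 5537), named after their values were seen. dsc-4, the gene of the microsomal triglyceride transfer protein that loads lipid onto secreted carriers, had rank 13635, and rme-8, another endocytosis gene, had none. With the 3862 strongest peaks of replicate 1 alone, 1 regulator and 1 uptake gene had a summit (background 10.1%). With those of replicate 2 alone 2 of each did (background 9.6%).

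Of 24 other intestinal genes, 4 (16.7%) had a reproducible summit, against 10.2% of protein-coding genes, and 14 had a pooled one, against 35.8%. The 4 reproducible ones were cpr-6, a cathepsin B-like protease gene (8 bp, rank 2012), act-5, the actin of intestinal microvilli (-248 bp, rank 2473), pept-1, a peptide transporter (-99 bp, rank 2880), and spl-1, a sphingosine phosphate lyase gene (-171 bp, rank 3781). cpr-6 ranked ahead of vit-6 in the pooled list and in both replicates (2175 and 2123). act-5 did so in the pooled list and replicate 2 (1862) but not in replicate 1 (3247), and pept-1 in the pooled list only (3933 and 2883 in the replicates). The gut esterase gene ges-1 and the fatty acid desaturase gene fat-7 had no pooled summit in reach.

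The protein-coding genes with ranks most like those of vit-6 in the pooled list and both replicates were dod-3, exos-3, an RNA exosome subunit gene, and nlp-4, a neuropeptide-like gene, of 5563 genes with a summit in reach in all 3 lists. Their distances in log10 rank were 0.0277 for dod-3 and 0.0304 for exos-3 and nlp-4, which share their summits. The pooled rank was 2776 for dod-3, 28 bp upstream of its 5' end, and 2762 for exos-3 and nlp-4. In these 3 genes the pooled summit was upstream of the 5' end, unlike at vit-6.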

How the data were processed

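TBP-1 binding was measured in 2 biological replicates of 1 group. The deposited lists are narrowPeak files on ce11, called on each replicate and on both pooled against a control alignment, with reproducible peaks thresholded by IDR, per the deposited file descriptions. No source used here gives the aligner, the caller or the number of reads. The signal deposited for each peak has no stated scale and served for ranks inside 1 list. The −log10 q values and summits were used as deposited.

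Gene models were those of Ensembl release 115 for WBcel235. A gene was counted when any of its transcripts began no farther than 500 bp from a summit. Promoters were 250 bases before to 50 after the 5' end. Identity came from global alignment, and uniqueness from exact 50-base matches on both strands. Alternatives were windows of 250 and 1000 bp, the stronger 1931 peaks, the 3862 strongest peaks of either replicate, gene-model ends, nearest ends, the peak interval, and motifs around summits. The lookup was tested on simulated data. The members, gene lists and alternatives were chosen with earlier results of these data known. The named genes were the members, genes sharing a summit with them, the 3 genes closest in rank to the strongest member, and listed pathway genes with a reproducible summit and up to 2 without. Genes beside the 3' ends, K09F5.9 and spp-14 were named after their values were seen. Python 3.11.15, numpy 2.4.6 and biopython 1.88 were used.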

Additional observations from a re-analysis of the deposited data

How the results depend on the processing

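The count of 3 vit genes with a reproducible summit was also 3 with windows of 250 and 1000 bp, gene-model 5' ends, nearest 5' ends and the peak interval, each time vit-1, vit-2 and vit-6. It was 2 to 3 with 1 replicate alone, vit-1 being lost with replicate 1, and 0 with the 1931 strongest peaks, where the background was 4.56%. The background of 10.2% was 6.38% with the 250 bp window and ranged from 9.5% to 13.5% in the other alternatives except nearest ends, at 6.89%. Within 200 bp centred on the nearest pooled summit, the TATA box matched 3 promoters in place of 5 and VPE2 3 in place of 5, while VPE1 and the GATA site each matched 4 in place of 6. The shares over all 7142 such windows were 18.1%, 6.01%, 3.74% and 19.1%, each lower than over promoters. These windows are shorter, the nearest summit of vit-4 and vit-5 was not their strongest, and that of vit-6 lay inside the gene. With 36-base stretches, 54% at vit-3 and 53% at vit-4 were unique around the 5' end. The uptake list went from 1 gene to 5 of 10 with the 1000 bp window (background 13.5%) and to 2 with replicate 2 alone (9.6%). The regulator list went from 1 to 0 with the 250 bp window (background 6.38%), nearest ends (6.89%) and the 1931 strongest peaks (4.56%). It went to 2 with replicate 2 alone (9.6%). The intestinal list went from 4 to 0 with the 1931 strongest peaks (background 4.56%). No paired analysis was possible because there is 1 group and no comparison between groups. Depth is unknown, so a missing or weak summit cannot be told from one below detection.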
